A study of Gallus gallus with 5 samples.

Results

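TST and MPST are neighbouring genes for enzymes that move sulfur atoms between small molecules. Their messenger RNAs were read by 3 of the 43603 probes on a chicken expression array, which name 2 of the 5382 genes that could be named. A probe was taken when the RefSeq accession in its annotation belongs to TST or MPST, and that gave 1 probe for TST (A_87_P107403, NM_001167731) and 2 probes for MPST (A_87_P114503 and A_87_P107398, both NM_001277377). Both genes were picked for how far their levels lay from WT in earlier results of these same arrays. Their levels and differences are therefore a description, with no test.

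TST, also called rhodanese, is a mitochondrial enzyme that takes a sulfur atom from thiosulfate and can pass it to cyanide, which is how it is best known as a detoxifying enzyme. MPST takes sulfur from 3-mercaptopyruvate, a breakdown product of cysteine, and passes it to thiols such as thioredoxin, from which hydrogen sulfide can be released. Both enzymes are built from rhodanese domains and are abundant in liver and kidney. In the gene table used for names MPST and TST stand next to each other on the chromosome, with no other named protein-coding gene listed between them. Entries with a provisional LOC symbol and genes that are not protein-coding were left out of that order.

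The cells were DT40, a B cell line from a chicken bursal lymphoma, and 5 lines were measured on 1 array each. WT is the DT40 clone cl18, and DKO has both genes for the histone variant H2A.Z knocked out. The remaining 3 lines are knockout cells with a stable transgene, and together they are called the complemented lines. DKO+H2A.Z.1, the H2A.Z.1 line below, expresses H2A.Z.1. DKO+5KR-H2A.Z, the 5KR-H2A.Z line, and DKO+H2A-H2A.Z, the H2A-H2A.Z line, express altered proteins that the labels name but do not describe. Every culture, WT included, grew at 38 °C and received tetracycline at 2 µg/ml for 72 hours, which shuts off a tetracycline-repressible H2A.Z.1 transgene. The promoters of the stable transgenes and whether each line is a single clone are not given in the sources used here. The title and source name of the DKO array say knockout, whereas its description and genotype entry carry the wording used for the H2A.Z.1-expressing line. DKO is used here after the title, and each value for DKO rests on that reading.

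The arrays were similar in the flags and spot spread below, but the DKO array was the dimmest. Its 75th percentile signal was 1115, against 1348 to 1558 on the others, and it had the fewest spots well above background. Between 29137 and 30574 of 43803 spots per array were well above background by the scanner software's own flag, no spot was saturated, and the 50 probes spotted repeatedly had a replicate spot SD between 0.0498 and 0.0649 on the log2 scale. WT, DKO and the H2A.Z.1 line shared slide 1, and the 5KR-H2A.Z line and the H2A-H2A.Z line shared slide 2, so a difference between a line of slide 2 and a line of slide 1 cannot be told apart from a slide difference. Both probes for H2AFZ, the gene for H2A.Z.1, read at least 24.8-fold lower in each of the 4 knockout-derived lines than in WT, the line given intact H2A.Z.1 included. Which part of the transcript these probes cover is not known here, so they check neither the transgenes nor the label of the DKO array. Of 12 measured B cell markers, 11 were well above background on every array, among them PAX5 and CD79B.

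TST was low in WT and high in the other lines. Its processed signal, a fluorescence intensity after background subtraction, was 29.8 ± 3.73 in WT, 709 ± 71.0 in DKO, 2812 ± 281 in the H2A.Z.1 line, 1796 ± 180 in the 5KR-H2A.Z line and 2680 ± 268 in the H2A-H2A.Z line. The errors are the scanner software's own for each spot and do not include the spread between cultures, which 1 array per line cannot give. The TST spot was well above background on all 5 arrays. Even in WT its median pixel read 65 against a local background of 25, and the dimmest probe well above background on that array had a processed signal of 9.91.

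MPST was not detected above background in WT and was well above it in each other line. The brighter probe, A_87_P114503, gave processed signals of 2.19 ± 2.10 in WT, 378 ± 37.9 in DKO, 2432 ± 243 in the H2A.Z.1 line, 2289 ± 229 in the 5KR-H2A.Z line and 2716 ± 272 in the H2A-H2A.Z line. The dimmer probe, A_87_P107398, gave 2.98 ± 2.97 in WT, 57.4 ± 6.35 in DKO, 411 ± 41.2 in the H2A.Z.1 line, 411 ± 41.2 in the 5KR-H2A.Z line and 459 ± 46.0 in the H2A-H2A.Z line. Both probes were well above background on 4 of 5 arrays, and WT was the exception for each. In WT the brighter MPST probe's median pixel read 37 against a background of 26, and the dimmer probe's read 32 against 28.

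**Figure D1:**
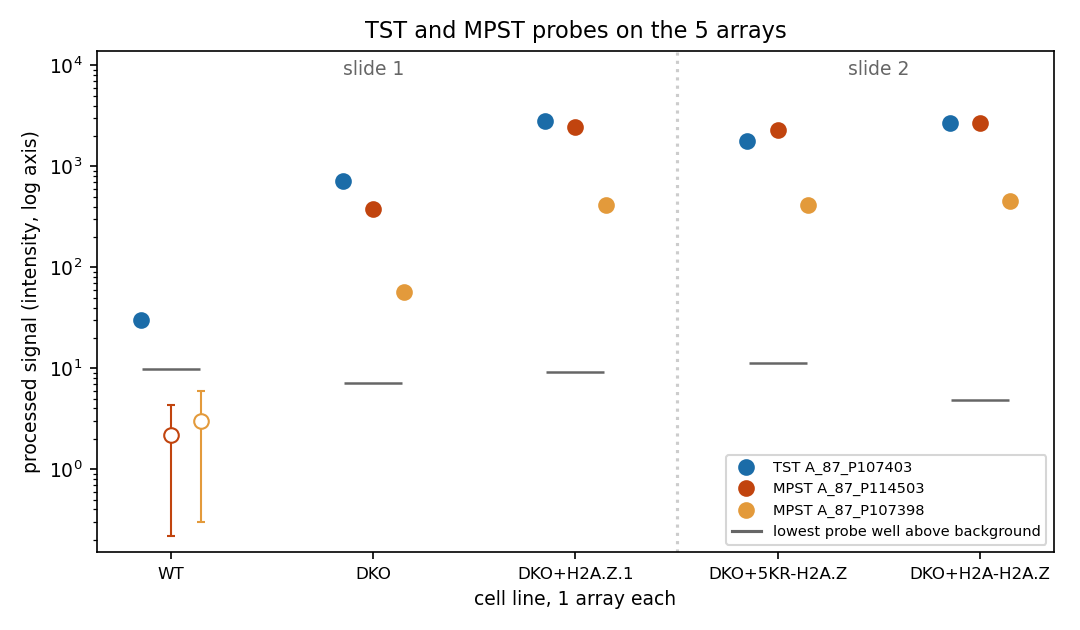
Processed signal of the TST probe and both MPST probes (vertical log axis, fluorescence intensity) on the array of each line, with the scanner software's error as bars, where larger than the point (lower bars of MPST in WT are kept above zero for the log axis). Open points were not well above background, and short lines give the lowest signal well above background on each array (4.81 to 11.3). Levels of different probes are not comparable. Each probe is lowest in WT, next in DKO and highest in the 3 complemented lines.

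The 3 probes thus ordered the arrays alike at the low end: WT lowest, DKO second, and the complemented lines above both. After the scaling described next, the order for TST at the upper end was the 5KR-H2A.Z line, the H2A.Z.1 line and the H2A-H2A.Z line. The last step was 0.0025 on the log2 scale and kept its direction in 2 of 7 other ways of processing. Without the scaling, TST read higher in the H2A.Z.1 line than in the H2A-H2A.Z line. Both MPST probes, after scaling, put the H2A.Z.1 line lowest of the 3, then the 5KR-H2A.Z line, then the H2A-H2A.Z line. Without scaling, the brighter MPST probe read lowest of the 3 in the 5KR-H2A.Z line. The steps within that upper group were small, as given below.

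For the differences, the log2 of each signal was taken relative to the 75th percentile of its array. On that scale TST stood at -5.61 in WT, -0.65 in DKO, 0.85 in the H2A.Z.1 line, 0.41 in the 5KR-H2A.Z line and 0.85 in the H2A-H2A.Z line. The brighter MPST probe stood at -9.37, -1.56, 0.64, 0.76 and 0.87 in the same order of lines, and the dimmer one at -8.93, -4.28, -1.92, -1.71 and -1.69. The WT values of MPST lie in the background and say only that the level was low.

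Compared with WT, TST was 31.0-fold higher in DKO, a log2 difference of 4.96 ± 0.23, where the error combines the software's errors of both spots. It was 88.1-fold higher in the H2A.Z.1 line (6.46 ± 0.23), on the same slide. Across slides it was 65.0-fold higher in the 5KR-H2A.Z line and 88.2-fold higher in the H2A-H2A.Z line. Among probes well above background on both arrays, ranked from the highest difference, TST was number 12 of 28418 in DKO minus WT. It was number 4 in each of the other 3 comparisons with WT, out of 29233, 28742 and 29303 probes for the H2A.Z.1 line, the 5KR-H2A.Z line and the H2A-H2A.Z line. TST was picked for its distance from WT on these arrays, so high ranks follow from the choice and nothing is read from them. Probes below background in WT, both MPST probes included, are not ranked.

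For MPST only a lower bound can be given against WT, since no WT level was measured. A bound sets the line's level against the dimmest WT signal that was still well above background. The flag is set spot by spot, and a spot somewhat brighter than that signal can lack it, so the bounds are not strict limits. The brighter probe was at least 49.9-fold higher in DKO, at least 229-fold in the H2A.Z.1 line, at least 249-fold in the 5KR-H2A.Z line and at least 269-fold in the H2A-H2A.Z line. The dimmer probe, which leaves less room above background, was at least 7.57-, 38.7-, 44.8- and 45.5-fold higher in the same lines. The bounds hold for this processing: with a background correction that adds an offset to every spot, all 8 measured MPST differences from WT came out below their bounds. On the log2 scale the brighter probe then gave 3.26 in DKO and 5.28 in the H2A.Z.1 line, against bounds of 5.64 and 7.84, and the dimmer one 1.24 and 2.65, against 2.92 and 5.28.

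All 3 probes were thus at least 2-fold higher than WT in all 4 lines. Over all probes that entered the same comparisons, the share at least 2-fold higher was 4.62% in DKO minus WT, 2.53% in the H2A.Z.1 line minus WT, 3.02% in the 5KR-H2A.Z line minus WT and 2.41% in the H2A-H2A.Z line minus WT. The 4 comparisons share the WT array and TST and MPST were chosen on them, so nothing is read from the count. The direction and the 2-fold call held under each of 7 other ways of processing for all 3 probes.

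The complemented lines did not bring TST and MPST back towards WT: each stood further from WT than DKO did. Against DKO on the same slide, the H2A.Z.1 line was 2.84-fold higher for TST (1.5 ± 0.20 on the log2 scale), 4.60-fold higher for the brighter MPST probe (2.20 ± 0.20) and 5.12-fold higher for the dimmer one (2.36 ± 0.22). Over all probes in that comparison 9.63% were at least 2-fold higher. Among 28438 probes well above background on both arrays, the dimmer MPST probe ranked 185 from the highest, the brighter one 242 and TST 889. TST and MPST were picked with results of these same arrays known, so nothing is read from these ranks.

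Across slides the same direction was seen in both other lines. The 5KR-H2A.Z line exceeded DKO by 2.09-fold for TST (1.07 ± 0.20), by 5.00-fold for the brighter MPST probe and by 5.92-fold for the dimmer one, with 7.61% of all probes at least 2-fold higher. The H2A-H2A.Z line exceeded DKO by 2.84-fold for TST, 5.4-fold for the brighter MPST probe and 6.01-fold for the dimmer one, with 11.1% of all probes at least 2-fold higher. The TST difference between the 5KR-H2A.Z line and DKO lay within its error of 2-fold and was 0.95 with the offset background correction and to 0.88 with scaling to the median. The other values against DKO stayed past 2-fold under all 7 alternatives.

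On the linear scale of the array, after the scaling, DKO held between 35.2% and 47.8% of the TST level of the complemented lines. For MPST it held 18.5% to 21.7% by the brighter probe and 16.6% to 19.5% by the dimmer one. The gap between DKO and the complemented lines was thus wider for MPST than for TST by both probes, by at least 0.70 on the log2 scale for the brighter one. With the offset background correction the dimmer probe did not keep this on the same slide, with 1.41 between the H2A.Z.1 line and DKO against 1.44 for TST. The MPST probes differed from each other by 0.15 to 0.24 in these comparisons, close to the error of a single difference. In bulk RNA, fewer expressing cells and less RNA per cell cannot be told apart.

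**Figure D2:**
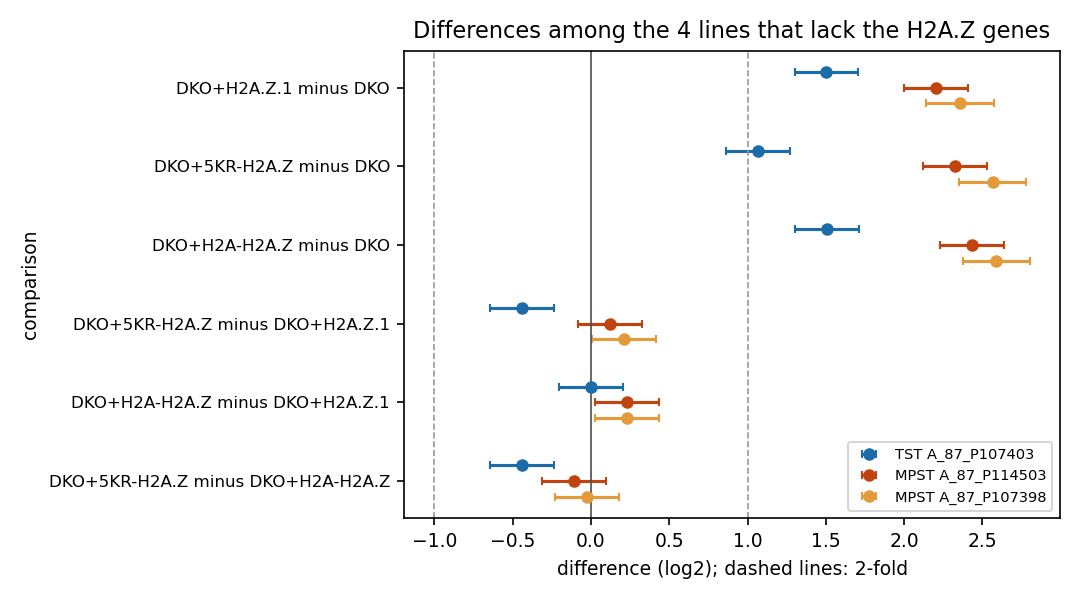
Log2 differences among the 4 knockout-derived lines for the TST probe and both MPST probes, with the combined error of both spots as bars and 2-fold as dashed lines. Points for the complemented lines minus DKO lie between 1.07 and 2.59, and those between complemented lines lie between -0.44 and 0.23.

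The 3 complemented lines lay close together. TST was 0.44 ± 0.20 lower on the log2 scale in the 5KR-H2A.Z line than in the H2A-H2A.Z line, which shared its slide, a 1.36-fold difference. Against the H2A.Z.1 line, across slides, TST in the 5KR-H2A.Z line was also 0.44 lower, and the H2A-H2A.Z line differed from the H2A.Z.1 line by 0.00 ± 0.20. TST in the 5KR-H2A.Z line thus read below both other complemented lines by more than the spot error, which leaves out the spread between cultures. Ranked from the lowest, TST was number 1556 of 28805 probes against the H2A.Z.1 line and 2344 of 28803 against the H2A-H2A.Z line. Nothing is read from these ranks either. With 1 array each the lines are not ordered further.

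For MPST the span over the 3 complemented lines was 0.23 by each probe, near the error of 0.20. The steps between neighbours in the order were 0.12 and 0.11 for the brighter probe and 0.21 and 0.02 for the dimmer one. With scaling to spike-in controls the 5KR-H2A.Z line came out below the H2A.Z.1 line, by 0.15 and 0.06 on the log2 scale, so the order of these lines for MPST is not settled. None of the 3 probes passed 2-fold in any comparison between complemented lines, where 3.57%, 3.76% and 4.73% of all probes did so in either direction (the 5KR-H2A.Z line minus the H2A.Z.1 line, the H2A-H2A.Z line minus the H2A.Z.1 line, and the 5KR-H2A.Z line minus the H2A-H2A.Z line).

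Among 355 other named genes whose levels spanned at least 2 on the log2 scale, MPST had the profile most correlated with that of TST, and TST with that of MPST (Pearson's r = 0.998 over 5 arrays). With 5 points, all of which include the same single WT array, the value is a description with no p. The WT level of MPST that enters it lies in the background. Both genes were picked for their distance from WT on these arrays, so a high r follows in part from the choice. By the root mean square distance between mean-centred profiles, MPST was number 10 of 355 for TST, at 1.49, where ENAH was closest at 0.52. The WT levels of MPST and ENAH that enter these distances lie in the background too. For MPST, TST was the closest gene by that distance too.

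ENAH, which encodes an actin regulator (r = 0.98 with TST), ITGA9, an integrin subunit, MOXD1, a monooxygenase-like gene, and TLR1A, a Toll-like receptor gene (r = 0.97), were the other genes most correlated with both. Their WT levels also lay in the background, as did the DKO level of ITGA9, so their order is not read further. By their brightest probes, of 2 and 3, ENAH and TLR1A were higher in the H2A.Z.1 line than in DKO, by 4.27-fold and 2.19-fold, as TST and MPST were. Genes with a small distance between mean-centred profiles included MAPK11, which encodes a p38 kinase, and RGS20, whose product shortens G protein signals, both well above background on all arrays. They shared the low WT level but stood highest in DKO. In the H2A.Z.1 line their log2 levels minus those in DKO were -0.75 and -0.87, where TST gave 1.5.

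**Figure D3:**
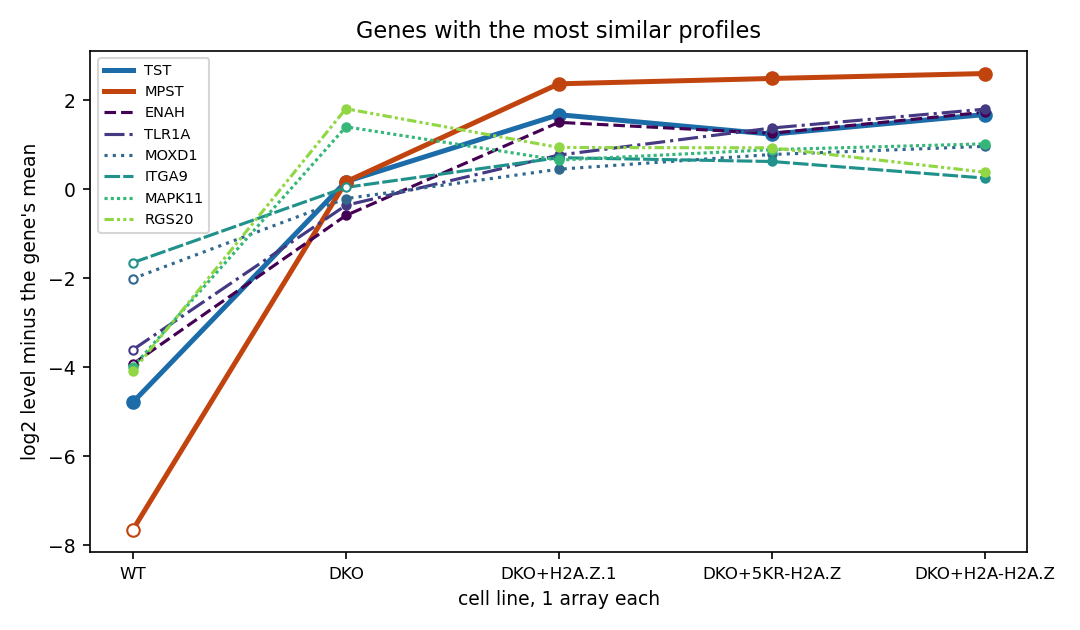
Log2 level of TST, MPST (brighter probe) and 6 genes with similar profiles on the 5 arrays, each minus its own mean. Lines join values of 1 gene to guide the eye, and open points were not well above background. All 8 genes are lowest in WT, and MAPK11 and RGS20 are highest in DKO, where TST and MPST are intermediate.

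The genes around TST and MPST were read for comparison. Of the 30 named protein-coding genes nearest in the order of the gene table, 15 on either side, 10 had a named probe. Of those, 9 were well above background on at least 1 array, PVALB being below it on every array. The named protein-coding genes next to the pair, TMPRSS6 and TEX33, had no named probe and were not analysed here. The nearest measured genes were SSTR3, in place 5 on the MPST side, and NCF4, in place 4 on the TST side. None of the 9 was at least 2-fold above WT in the H2A.Z.1, 5KR-H2A.Z or H2A-H2A.Z line, where 1.93%, 2.59% and 1.88% of all named genes were, so that a count of 0 among 9 lies near the background.

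In DKO minus WT, 2 neighbours lay at least 2-fold above WT and 3 at least 2-fold below it, with a median over the 9 of -0.36, where 15.3% of named genes were apart in either direction and their median was 0.15. NCF4, a subunit of the phagocyte oxidase and the nearest measured gene on the TST side, stood at -2.92 on the log2 scale, and at -1.15 with the offset background correction. IFT27, a small GTPase of ciliary transport, stood at -2.38, and CYTH4, an exchange factor for ARF proteins on the MPST side, at -1.66. LGALS1A, a galectin, was 1.78 higher and MB, the gene for myoglobin, 1.23 higher, the latter falling under 2-fold with the offset background correction and with spike-in scaling.

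For NCF4 and IFT27 the levels in the H2A.Z.1 line returned close to WT, at -0.09 and -0.29 on the log2 scale, where TST stood at 6.46. In that comparison CYTH4 alone of the 9 neighbours passed 2-fold, at -1.15, against 5.85% of named genes in either direction. No neighbour passed 2-fold in the 5KR-H2A.Z line minus WT or the H2A-H2A.Z line minus WT, where 6.52% and 4.05% of named genes did. RAC2 and SSTR3, the measured genes closest to MPST on its side, stayed between -0.51 and 0.29 of WT in all 4 lines.

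**Figure D4:**
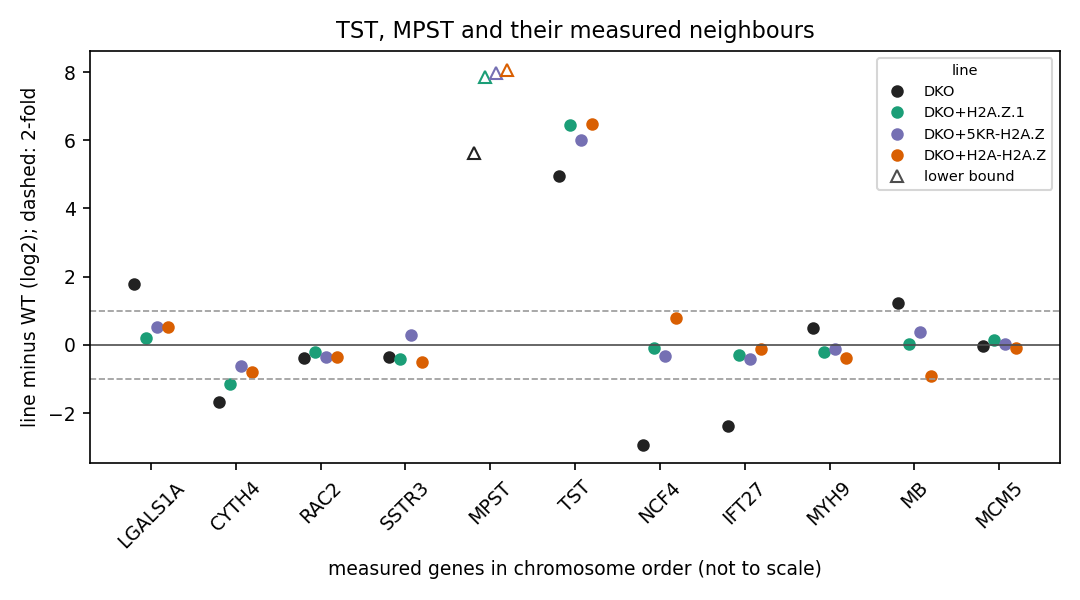
Log2 difference from WT of MPST (brighter probe, lower bounds as open triangles), TST and the 9 measured neighbours, in chromosome order but not to scale, for each of the 4 lines. Dashed lines mark 2-fold. TST stands between 4.96 and 6.46, the lower bounds of MPST between 5.64 and 8.07, and the neighbours between -2.92 and 1.78.

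Other genes of sulfur metabolism were examined through a list of 66 genes, of which 26 were measured. The list includes relatives entered for their rhodanese domain alone, 3 of them measured. No member of it was at least 2-fold above WT in a complemented line, a count near the background given above for all named genes. The enzymes that supply hydrogen sulfide or oxidise it in mitochondria, CBS, CTH, SQOR, ETHE1 and SUOX, and mitochondrial thioredoxin, TXN2, had no named probe and were not analysed here. GOT1 and GOT2, the aminotransferases that can form 3-mercaptopyruvate, the substrate of MPST, were well above background on all arrays. GOT1 lay between -0.04 and 0.30 of WT in the 4 lines and GOT2 between -0.12 and 0.20. TXN, the thioredoxin that accepts sulfur from MPST, lay between -0.33 and 0.20.

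In DKO minus WT, 3 of the 26 genes were at least 2-fold higher and none lower, while 4.21% of all named genes were as much higher and 15.3% apart in either direction. MAT1A, which makes S-adenosylmethionine, was 2.57-fold higher, and CHAC1 and CHAC2, which degrade glutathione, were 2.58-fold and 2.72-fold higher. The median of the list was 0.34 in that comparison and that of all named genes 0.15. Of the 26 genes 20 lay above WT, but with spike-in scaling only 9 did, the list's median was -0.15 and that of all named genes -0.35. None of the 3 genes passed 2-fold under that scaling, where GLRX, a glutaredoxin, was instead more than 2-fold below WT, and MAT1A also missed 2-fold with the offset background correction, at 0.77.

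MAT1A and the CHAC genes did not follow TST and MPST into the complemented lines. In the H2A.Z.1 line, MAT1A was not well above background and lay past 2-fold below WT by its bound, CHAC1 stood at -0.31 and CHAC2 at 0.44. GLRX, which reduces mixed disulfides, was 1.29 lower on the log2 scale than WT in the H2A.Z.1 line. MAT1A and GLRX were the 2 of 26 genes past 2-fold in that comparison, near the share of 5.85% among all named genes, and the same genes were lower in the 5KR-H2A.Z line, and neither passed 2-fold against WT in the H2A-H2A.Z line, where none of 25 did. Neither gene passed 2-fold in these lines with the offset background correction.

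**Figure D5:**
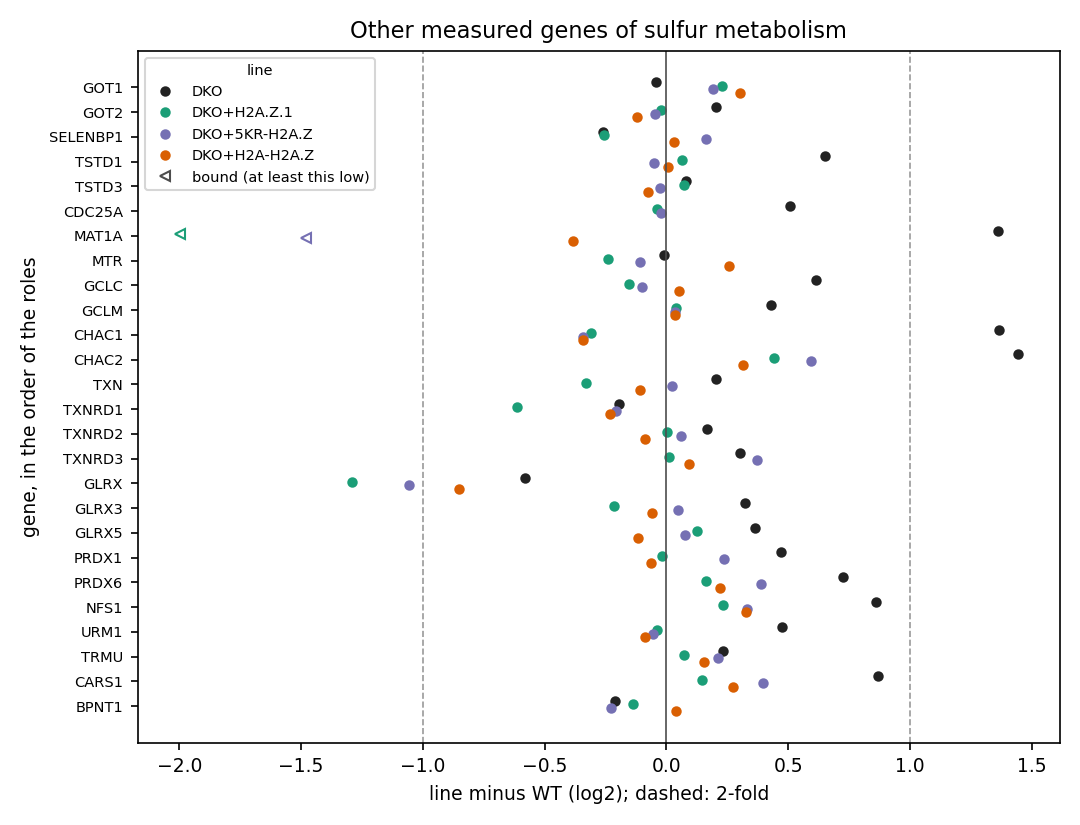
Log2 difference from WT of the 26 measured genes of the sulfur metabolism list, rhodanese domain relatives included and TST and MPST left out, for each of the 4 lines. CDC25A has no value in the H2A-H2A.Z line, which shows 25 genes. Open triangles are bounds for values not well above background, and dashed lines mark 2-fold. No gene passes 2-fold upwards in a complemented line, where TST stood between 6.02 and 6.46.

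Because TST and MPST are abundant in liver and kidney, markers of other cell types were read beside them. Of 6 measured hepatocyte markers TTR, SERPINA1 and HNF4A were below background on all arrays and ALB, APOA1 and FGB well above it on all, and the summed level of the list was -1.36 in WT and between -1.46 and -1.30 in the other lines. Single members moved in opposite directions under that sum: from WT to DKO, ALB went from -3.05 to -2.37, APOA1 from -4.04 to -3.44 and FGB from -2.32 to -3.40. Of 2 measured kidney tubule markers UMOD was below background throughout and AQP2 above it throughout, with summed levels of -3.44 in WT and -3.41 to -2.88 elsewhere. The AQP2 level is that of its brightest probe of 4, at 0.38 in DKO minus WT. The lowest AQP2 probe stood at -3.38 there, so the probes of this gene did not move alike. The B cell list summed to 7.77 in WT and 7.68 to 7.93 elsewhere. The sums add linear levels, so bright members such as CD79B, at 6.53 in WT, weigh most and can hide changes in dimmer ones. IRF8, at 2.06 in WT, differed from WT by -0.95 in DKO and by -1.02 in the H2A.Z.1 line, where CD79B differed by 0.33 and 0.05.

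The remaining marker lists were summed in the same way. The 4 measured T cell markers, of which CD4 was below background on all arrays, summed to -3.73 in WT and to between -2.41 and -1.54 in the other lines. Its members did not move alike. In DKO minus WT, CD3E stood at 3.77 on the log2 scale (1.07 by its lowest probe), CD8A at 0.32 and CD28 at 0.30. The other CD28 probe, well above background in WT alone, stood at -1.87. The 3 fibroblast markers, PDGFRA below background on all arrays, summed to -1.86 in WT and to between -1.05 and 0.21 elsewhere. Here COL1A2 stood at 2.36 in DKO minus WT (1.08 by its lowest probe) and COL3A1 at 0.04 (-2.74 by the lowest of its 10 probes). The 4 myeloid markers summed to -0.24 in WT and -0.70 to -0.40 elsewhere, and CD14 among them was well above background in WT alone. The 3 erythroid markers, TAL1 below background throughout, summed to -4.38 in WT and to between -5.47 and -4.23 elsewhere, on both sides of WT. The part of these lists in the TST and MPST levels was not tested.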

How the data were processed

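Total RNA (100 ng per line) was labelled with Cy3, per the labels' protocols, and the file headers name Agilent Feature Extraction 11.5.1.1 as the image software. Each deposited scanner file holds a background-subtracted linear intensity (the processed signal) and its error, besides spot and background intensities and flags, as its headers state. The authors' deposited value table holds the same intensity times 1 constant per array (1.031 to 1.227). How that constant was set is not given in the sources used.

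The log2 of the processed signal minus the 75th percentile of non-control spots on its array was used (Python 3.11.15, numpy 2.4.6, pandas 2.3.3). Spots marked as outliers (2 to 37 per array) were left out. Probes were named through RefSeq accessions in a gene table of GRCg7b (11935 of 43603). The files follow galGal3, so the table served for names and gene order only. A gene was read from its probe with the highest mean, and was compared between arrays if well above background on either of them, as were single probes. With 1 array per line no test was possible, the 2-fold threshold is a description, and the number of arrays limits the precision.

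TST, MPST, the gene lists and the thresholds were chosen with earlier results of these data known. Named genes were all TST and MPST probes, list members past 2-fold and a few fixed pathway genes, the nearest 3 measured neighbours on either side with those past 2-fold against WT, and the 5 closest profiles by either measure, of which 1 gene is not reported here. Alternatives were normexp (offset 50, limma 3.58.1 in R 4.3.3) on median intensities, median, quantile, cyclic loess and spike-in scaling (8 control probes), the authors' table, outlier spots kept, thresholds of 1.5-fold and 3-fold, other filters and other probes.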

Additional observations from a re-analysis of the deposited data

How the results depend on the processing

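No paired analysis was possible because each line has 1 array and no comparison has more than 1 replicate number. No TST or MPST value against WT changed sign. For TST, DKO minus WT was 4.96 on the log2 scale and became 3.42 with normexp, 5.14 with median scaling, 5.08 with quantile normalization, 4.46 with spike-in scaling and 4.77 in the authors' table. For the H2A.Z.1 line minus WT, TST went from 6.46 to 4.86 with normexp and 6.58 with quantile normalization. For the brighter MPST probe, measured differences that use the WT level below background were 7.82 for DKO minus WT, becoming 3.26 (normexp), 7.995 (median), 7.32 (spike-in), 7.60 (authors' table) and 4.65 (the other probe). For the H2A.Z.1 line minus WT they were 10.0, becoming 5.28 (normexp), 9.92 (quantile) and 7.01 (the other probe). Normexp adds an offset of 50 to each spot, which lowers differences of dim spots by construction. Spike-in scaling moved the median of all probes in DKO minus WT from 0.10 to -0.40.

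The count of sulfur metabolism genes past 2-fold in DKO minus WT was 3, and 5 with median scaling, 1 with spike-in scaling (GLRX, lower, in place of 3 higher), 8 at 1.5-fold and 0 at 3-fold. In the H2A.Z.1 line minus WT it was 2, and 0 with normexp, 1 at 3-fold and 1 with both arrays well above background. The count of neighbours in the H2A.Z.1 line minus WT was 1, and 0 at 3-fold or with the median over probes. Apart from what construction shows, the cause was not tested. Signal over background limits every WT value of MPST.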

Other observations

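How many probes share the pattern of TST and MPST was counted with thresholds chosen after the data were seen. Of 31956 probes well above background on at least 1 array, 34 (0.106%) were at least 4-fold above WT in DKO and at least 16-fold above it in all 3 complemented lines, values below background included. All 3 TST and MPST probes were among them, and the 12 named ones belonged to 7 genes: ENAH, FOXD1, MAPK11, MPST, RGS20, TLR1A and TST. Not every probe of these genes met the pattern. FOXD1, a forkhead factor gene, met this by its dimmer probe alone, while its brighter probe differed by -0.10 on the log2 scale between DKO and WT. Probes at least 2-fold above WT in all 4 lines numbered 252 (0.789%). Of these, 19 (0.0595% of all) had DKO at least 2-fold below the 3 complemented lines as well. The 6 named ones belonged to ENAH, FOXD1, MPST, TLR1A and TST, with all 3 TST and MPST probes among them. ENAH has 2 probes and TLR1A 3, and for neither gene did all of them meet this. Probes at least 2-fold below WT in all 4 lines numbered 539 (1.69%).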
